A study of Mus musculus with 2 samples.

Results

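The genes described here encode the nuclear-encoded subunits of the mitochondrial respiratory chain and of ATP synthase in mouse myeloid progenitors. They were chosen by symbol alone: every gene of the table whose symbol begins with Ndufa, Ndufb, Ndufc, Ndufs or Ndufv and a number, or with Uqcr, Cox4 to Cox8 or Atp5, and Sdha, Sdhb, Sdhc and Sdhd. The rule found 84 of 23988 genes, namely 37 of complex I, 4 of complex II, 8 of complex III, 18 of complex IV and 17 of complex V. Complex I takes electrons from NADH and complex II from succinate. Both pass them through ubiquinone to complex III, from which cytochrome c carries them to complex IV, where oxygen is reduced. Complexes I, III and IV pump protons, and complex V uses the proton gradient to make ATP. Most subunits are encoded in the nucleus and imported, while a small set is encoded by mitochondrial DNA and is not among these genes. In blood cell progenitors the chain supports growth and biosynthesis beside glycolysis.

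The symbol rule also takes genes that are not constant parts of their complex. Of the 18 complex IV genes, 7 are isoforms known from particular tissues, and Cox7a2l encodes a factor described as linking complexes III and IV. Atp5s and Atp5sl carry the Atp5 name without being subunits, Ndufa4 encodes a protein that is now counted to complex IV, and Ndufa4l2 is its paralog. Ndufb1 was not found in the table under this symbol.

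The data came from C57BL/6 mice. Bone marrow cells without lineage markers were kept for 7 days in medium with IL3, SCF and IL6 (growth factors for early blood cells), had no other treatment, and are labelled as untransformed myeloid progenitors. The title of the series names HOXA9/MEIS1 leukaemia cells, which were not analysed here. The labels give 1 group (MP) of 2 RNA-seq libraries, called replicate 1 and replicate 2, and do not say whether these came from separate cultures or animals. The spread between them may therefore not be that between separate animals or cultures. Markers of cell types differed between the 2 libraries, as given below. With 2 libraries, flipping signs in an exact permutation test gives p = 0.5 at the least, so no test was run. The effective library sizes recovered from the values were 29941063 reads in replicate 1 and 28793666 in replicate 2.

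Markers of the labelled cells were present, and those of other myeloid cells too. Mpo stood at 1665 and 1222 RPKM and Kit at 13 and 16. The 6 progenitor and promyelocyte markers summed to 6674 and 5133 RPKM in replicates 1 and 2, the 8 monocyte and macrophage markers to 1890.0 and 5751, and the 5 mast cell markers to 9.74 and 823. The 4 B cell markers summed to at most 0.428 RPKM in a library and the 4 T cell markers to at most 0.919. The 4 erythroid markers reached at most 2.22 RPKM, the value of Klf1 in replicate 2.

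The deposited RPKM values (reads per kilobase of gene and per unit of library size) could not be compared between these genes as they stand, because the values of the members fitted the length of a gene some rows away better than their own. Whole read numbers in both libraries limit the length by which a row was divided, and the implied lengths of neighbouring rows were set against annotated transcript lengths at each distance up to 100 rows. For the rows around the Nduf genes the best match lay 2 rows earlier in the table, for 39 of 200 informative rows, against at most 4 at any other distance and 0 at the row itself. The Sdh and Uqcr genes had the same shift of 2 rows (32 and 31 of 200 rows matching, 3 each at the row itself). The Cox genes took the length of the row before (36 of 200, 2 at the row itself), and the Atp5 genes that of the gene 37 rows later (33 of 116, 0 at the row itself). Most rows matched at no distance, and the annotation used here (GENCODE vM21) need not be the one behind the table. Uqcrh, for example, had by this reading been divided by 1882 bases, the length of Uqcrc2, whereas its own transcript has 547. Cox4i2 had been divided by the length of Cox4i1, and Atp5e by that of Atp6v1g3.

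**Figure D1:**
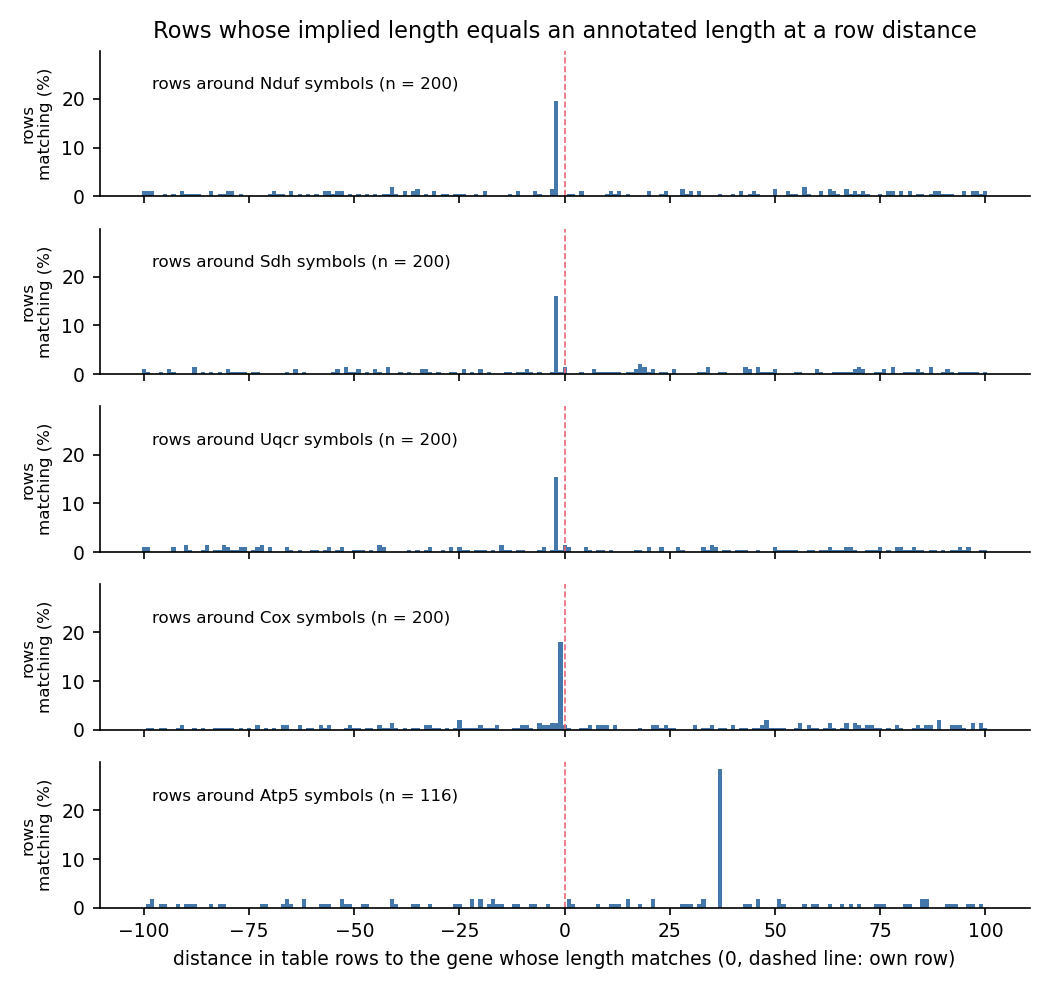
Share of informative rows (y axis, percent) whose implied length equals an annotated transcript length of the gene at a given distance in table rows (x axis), for the rows around each group of symbols. Each panel has 1 tall bar, at -2 for Nduf, Sdh and Uqcr, at -1 for Cox and at 37 for Atp5, with at most 3 matching rows at 0, the row itself.

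Levels were therefore realigned: the reads behind each value were divided by the gene's own length, and RPKM below means this value unless it is called deposited. The change was large. Of the 80 members above 0 in replicate 1, 32 differed more than 2-fold between the deposited and the realigned value. The ratio ran from 0.0519 for Atp5h to 7.07 for Ndufs1. Among the 72 constant subunits above 0, the SD over genes of log2 RPKM was 1.40 as deposited and 1.05 after realignment. Ratios between the libraries do not depend on the length. For 19 members a second length could not be set aside, and their level is less certain.

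**Figure D2:**
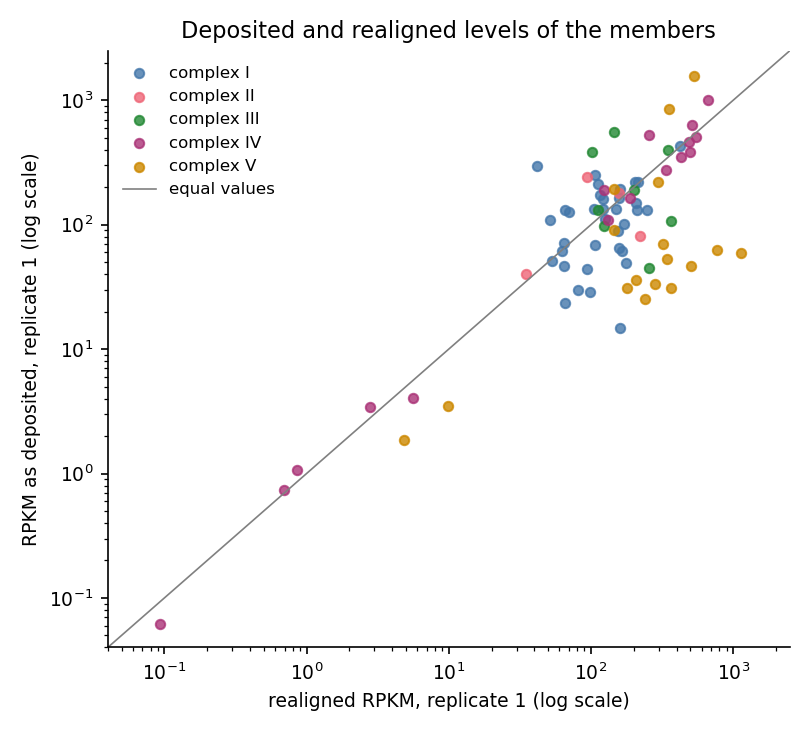
RPKM as deposited (y axis) against realigned RPKM (x axis) in replicate 1, both on log scales, 1 point for each of the 80 members above 0, coloured by complex. Most Atp5 genes lie below the line of equal values, and Atp5b, Atp5a1 and Atp5c1 above it.

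Most of the respiratory chain genes stood at high levels. In both libraries 77 of the 84 members reached 1 RPKM, against 44.2% of all genes with a realigned value. Their median level was 152 RPKM in replicate 1 and 138 in replicate 2. The 7 members below 1 RPKM in a library were 5 tissue-restricted complex IV isoforms, Ndufa4l2 and Ndufs5.

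With the genes grouped by symbol, complex V had the highest median level in both libraries and complex I the lowest. The medians were 297 and 234 RPKM for complex V, 161 and 168 for complex IV, 174 and 148 for complex III, 126 and 119.6 for complex II and 116 and 99.8 for complex I. On the log2(RPKM + 1) scale, complex V exceeded complex I by 1.28 ± 0.08 (SD, n = 2), complex III by 0.53 ± 0.04 (SD, n = 2) and complex IV by 0.59 ± 0.21 (SD, n = 2), each more than 2 SD and with the same sign in both libraries. The difference for complex II, 0.12 ± 0.08 (SD, n = 2), was within 2 SD of 0. Both libraries share the same gene lengths, so these SDs do not cover errors in length. As deposited, complex V lay below complex I, with a difference of -1.09 ± 0.05 (SD, n = 2). The complex IV median mixes 10 ubiquitous genes with the tissue-restricted ones. Without the latter, and with Ndufa4 counted to it, complex IV stood at 394 RPKM over both libraries and exceeded complex I by 1.85. Complex V, without its 2 non-subunits, then stood at 297 and was no longer the highest. The complex IV difference was 0.99 with members at 1 RPKM or more and 0.33 without members of uncertain length. With means over members the whole complex IV group lay below complex I, at -0.90, and complex III exceeded it by 0.98.

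**Figure D3:**
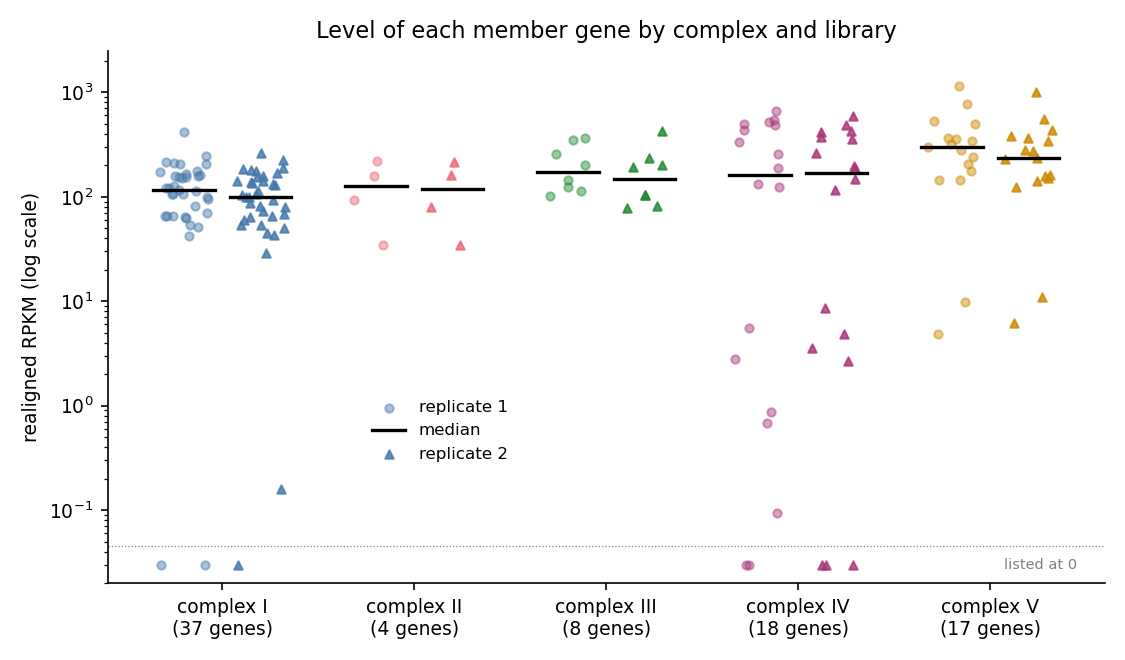
Realigned RPKM (y axis, log scale) of each of the 84 members by complex, circles for replicate 1 and triangles for replicate 2, with black bars at the medians. Complex V has the highest medians (297 and 234 RPKM), and the low points in complex IV are the tissue-restricted isoforms.

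Within complex I, the 7 core subunits, which carry the flavin and the iron-sulphur clusters, stood lower than the accessory subunits that surround them. Core genes had medians of 70.2 and 63.5 RPKM and the 28 accessory genes 138 and 122, a difference of -0.94 ± 0.03 (SD, n = 2) on the log2 scale. As deposited the sign was the opposite, 0.38 ± 0.17 (SD, n = 2), and with means over members the difference was -0.53. Ndufs1, which encodes the largest core subunit with several iron-sulphur clusters, was the lowest core gene at 41.8 (replicate 1) and 29.2 RPKM (replicate 2). Ndufv1, the subunit that oxidises NADH, stood at 51.2 and 42.8, next above Ndufs1 in both libraries. Ndufs3, which helps to form the arm that joins the matrix and membrane parts, stood at 65.4 and 63.5 RPKM. Ndufs8, a carrier of iron-sulphur clusters, stood at 70.2 and 50.5, so that these 2 genes changed places between the libraries. Ndufv2 holds a further iron-sulphur cluster beside Ndufv1 and stood at 106 and 86.8 RPKM. Ndufs7, which passes electrons to the quinone, was the highest of the core at 116 and 105.

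Among the accessory genes the Ndufb group, whose proteins sit in the membrane arm, had medians of 169 and 148 RPKM, and the Ndufa group 138 and 123. The 6 genes named Ndufc, Ndufs or Ndufv had medians of 72.2 and 69.3, close to those of the core. By the mean of both libraries Ndufb7, on the outer face of the membrane arm, led at 246 and 226 RPKM. Ndufb8, also of the membrane arm, stood at 213 and 186, or at 243 and 212 with the second possible length. Ndufa2, of the matrix arm, stood at 204 and 190.2, or at 408 and 380.4. Ndufb3 and Ndufb6 followed these genes, both of them in the membrane arm. Ndufb3 stood at 209.7 and 181 RPKM and Ndufb6 at 206 and 154, the own length of Ndufb3 being uncertain.

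The lower end of the accessory genes held members of all 3 groups. Ndufs4, which helps to complete the matrix arm, was the lowest above 0 at 53.5 and 45.1 RPKM. Ndufb4 stood at 65.3 and 53.2 and Ndufb2 at 65.1 and 59.8, under the other 8 Ndufb genes, which ran from 113 to 246 in replicate 1. Ndufa9, which lies near the quinone site, was the lowest Ndufa gene at 64.7 and 53.8 RPKM, but would stand at 129 and 108 with its second possible length. Ndufv3, a small subunit next to the NADH site, stood at 62.9 and 72.4, and Ndufs6, which binds zinc, at 81.5 and 66.2. Ndufv3 was thus higher in replicate 2 and Ndufs6 lower. Ndufc1 and Ndufc2, a pair of membrane arm subunits, stood at 107 and 80.9 and at 157 and 128 RPKM.

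The highest gene with an Nduf symbol was Ndufa4, at 421 and 261 RPKM. These values lie within the range of the 10 ubiquitous complex IV genes, from 133 and 117 for Cox7c to 666 and 590.1 for Cox4i1, and above those of the other complex I genes by symbol at the lengths used. With their second possible lengths Ndufa2, as given, and Ndufa7, at 252 and 280.0 RPKM, would exceed Ndufa4 in replicate 2.

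Ndufs5, an accessory subunit of the membrane arm, was listed at 0 in both libraries although the other accessory genes of complex I stood at 45.1 RPKM or more. BC002163, which matched the Ndufs5 transcript at 95% identity or more over at least 50% of its length, stood at 0.0236 and 0.0123 RPKM as deposited. Reads that fit both genes cannot be assigned to one of them, and whether that set these zeros was not tested. Ndufa4l2, known from other cells as a gene induced at low oxygen, was listed at 0 in replicate 1 and at 0.16 RPKM in replicate 2, about 4 reads.

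The 4 genes of complex II, succinate dehydrogenase, spanned a wide range. Sdhb, the iron-sulphur subunit, stood at 220.3 (replicate 1) and 214 RPKM (replicate 2), or at 147 and 143 with the second possible length. Sdha, the flavoprotein that oxidises succinate, stood at 93.7 and 79.2. The 2 membrane anchors lay at opposite ends of the other values, with Sdhd at 158 and 160.0 RPKM and Sdhc at 34.8 and 34.4. The own length of Sdhc is uncertain. At the lengths used, the order Sdhd, Sdha, Sdhc was the same in both libraries.

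In complex III 4 small subunits led. Uqcrh, the hinge protein at the cytochrome c side, stood at 367 (replicate 1) and 426 RPKM (replicate 2). Uqcrb, which borders the quinone site, stood at 348 and 237, or at 464 and 316 with the second possible length. These 2 genes differed in opposite directions between the libraries. Uqcr10 and Uqcr11, small membrane subunits, stood at 255 and 191 and at 202 and 203 RPKM. The large core proteins, which face the matrix, were lower, with Uqcrc1 at 146 and 105 (or 109.8 and 78.6 with its second possible length) and Uqcrc2 at 102 and 78.4. Uqcrfs1, the Rieske iron-sulphur protein that passes electrons towards cytochrome c1, stood at 123 and 104. Uqcrq, a further small subunit, was an exception to the order by size and among the 2 lowest of the complex at 112 and 81.6. As deposited, Uqcrc1 had been the highest of these genes, at 556 and 398 RPKM, and Uqcrh among the lower ones, at 107 and 124.

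In complex IV, cytochrome c oxidase, each isoform group was carried almost wholly by its ubiquitous member. The 10 ubiquitous genes had medians of 459.9 and 364 RPKM, and the 7 tissue-restricted isoforms 0.689 and 2.69, a difference of -7.36 ± 1.03 (SD, n = 2) on the log2 scale. Cox4i1, the main form of a subunit that regulates the enzyme, was the highest at 666 and 590.1 RPKM. Cox8a, the smallest kind of subunit, stood at 515 and 485. Cox6a1, of the membrane part, stood at 545 and 425, or at 1089 and 849.9 with the second possible length, which would make it the highest. Cox6b1, which faces the intermembrane space, stood at 497 and 415 RPKM. The 2 subunits on the matrix side, Cox5a and the zinc-binding Cox5b, stood at 487 and 356 and at 337 and 265, the own length of Cox5b being uncertain. Cox6c, a membrane subunit, lay between them in replicate 1 and above both in replicate 2, at 433 and 372. The subunits of the Cox7 kind, which have a single membrane span, were the lowest of the ubiquitous genes. Cox7a2 stood at 256 and 195 RPKM, Cox7b at 188 and 148 and Cox7c at 133 and 117. Gm10012, a near-identical copy of Cox7c, was listed at 0.816 and 1.0 RPKM as deposited.

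The share of an isoform group held by its restricted member was small in every case. Cox7a1, the heart and muscle form, held 2.13% of the summed Cox7a1 and Cox7a2 RPKM in replicate 1 and 4.23% in replicate 2, from 61 and 91 reads. The level of Cox7a1 itself was 5.57 and 8.64 RPKM, the highest of the 7 restricted isoforms. Cox4i2, a form known from lung and as induced at low oxygen, held 0.103% and 0.819% of its pair. Cox6a2, the other heart and muscle form, held 0.158% and 0.628%. Cox6b2, a form of testis, held 0.563% and 0.861%. Cox8b was seen in about 1 read of replicate 1 and listed at 0 in replicate 2. Cox7b2 and Cox8c, both known from testis, were listed at 0 in both. Of 6 heart and muscle markers, 5 (Acta1, Ckm, Des, Myh6 and Myh7) stood at 0.128 RPKM or less. Tnni3 stood at 3.0 and 4.64, a level of uncertain length.

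In complex V the values after realignment lay close together between the parts of the enzyme. The F1 genes, which encode the catalytic head and its shaft, had medians of 319.7 and 273 RPKM, the peripheral stalk genes 289 and 233, the c-ring genes 341 and 342 and the accessory genes of the membrane part 367 and 282. F1 exceeded the stalk by 0.19 ± 0.06 (SD, n = 2), more than 2 SD, but means in place of medians gave -0.46. The c-ring minus F1 difference, 0.21 ± 0.16 (SD, n = 2), and that of the membrane accessory genes minus F1, 0.12 ± 0.11 (SD, n = 2), were within 2 SD of 0. Without members of uncertain length c-ring minus F1 was 1.15, from Atp5g3 alone. As deposited these 3 differences were 2.05 ± 0.02 (SD, n = 2), -1.82 ± 0.03 (SD, n = 2) and -2.59 ± 0.01 (SD, n = 2).

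Atp5b and Atp5a1 encode the beta and alpha subunits of the catalytic head, of which each enzyme holds several copies. Atp5b stood at 526 and 379.6 RPKM, and as deposited at 1557 and 1123. Atp5a1 stood at 354 and 273, and as deposited at 857 and 661. The other F1 subunits form the shaft and are present once. Atp5c1 (gamma) stood at 145 and 123 RPKM and Atp5d (delta) at 146 and 142, below Atp5a1. Atp5e (epsilon), the smallest, stood at 319.7 and 364, below Atp5a1 in replicate 1 and above it in replicate 2.

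The peripheral stalk holds the head against the turning ring. Atp5h, subunit d, had the highest value of all members, 1140.2 and 1018 RPKM, and an uncertain one. Its read numbers allow a length that gives 1520.3 and 1357, and at the smallest possible length the values are 380.1 and 339. Atp5h also has 3 near-identical copies in the annotation, which may share its reads. The other 3 stalk genes were of one order. Atp5f1 (subunit b) stood at 297 and 231 RPKM, Atp5j (coupling factor F6) at 281 and 234, and Atp5o, which joins the stalk to the head, at 208 and 159. All 4 were lower in replicate 2, as were 85.1% of the members compared and 60.9% of all genes compared.

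Of the accessory genes of the membrane part, Atp5l (subunit g) stood at 501 and 439 RPKM, Atp5k (subunit e) at 367 and 282 and Atp5j2 (subunit f) at 178 and 149.9. Atp5l has 9 near-identical copies in the annotation, which may share its reads. The lowest genes with an Atp5 symbol were those that are not subunits, Atp5s at 4.84 and 6.22 RPKM and Atp5sl at 9.92 and 11.1.

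The proton-carrying c-ring is built from 1 mature protein that 3 genes encode. Atp5g3 held 54.8% ± 2.99 (SD, n = 2) of their summed RPKM, Atp5g2 28.7% ± 4.84 (SD, n = 2) and Atp5g1 16.5% ± 1.85 (SD, n = 2). The levels were 767 and 560.2 RPKM for Atp5g3, 341 and 342 for Atp5g2 and 239 and 161 for Atp5g1, an order that both libraries shared at the lengths used. With the second possible length Atp5g2 would stand at 681 and 683, above Atp5g3 in replicate 2. Atp5g1 is uncertain too and would stand at 479 and 322, above the value used for Atp5g2 in replicate 1. Its own length is also uncertain, 868 bases as used and 2655.5 by the annotated transcripts. The longer one would lower its value. The order and the shares depend on these lengths. Atp5g1 and Atp5g2 have near-identical copies in the annotation (1 and 2 genes), which may share their reads.

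Most members were slightly lower in replicate 2 than in replicate 1. At a mean of 5 deposited RPKM or more, 74 members could be compared, and 63 of them (85.1%) were lower in replicate 2, as were 60.9% of all 8151 genes so compared. Atp5s and Atp5sl fell below this limit as deposited but not after realignment, and both were higher in replicate 2. With realigned values 63 members were again lower. With a pseudocount of 1, the median of log2 (replicate 2 / replicate 1) was -0.24 for the members and -0.09 for all genes, and after centring on the latter 57 of the 74 members were still lower. For 58 of the 74 members (78.4%) the 95% interval of the ratio of reads lay below 1, which was so for 48.4% of all genes. These exact (Clopper-Pearson) intervals cover counting error only, and each side is 1 library, so the difference has no replicate check. None of the 74 members compared differed 2-fold in either direction. Of all genes compared, 4.22% reached this in the higher direction and 0.515% in the lower. At 1.5-fold, Cox7a2l was higher and Ndufa4 lower, beside 8.78% and 4.36% of all genes.

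By complex, the median log2 ratio was -0.39 for complex III, -0.26 for complex V, -0.24 for complex I, -0.24 for complex IV and -0.03 for complex II. All 7 core genes of complex I, all 10 Ndufb genes and all 10 ubiquitous complex IV genes were lower in replicate 2, beside 60.9% of all genes. Of these, Ndufs3, Ndufb11 and Cox8a were higher when the ratios were centred on the median of all genes. In complex II Sdha lay below 1 beyond counting error, and the intervals of Sdhb, Sdhc and Sdhd held 1. The 5 members with the lowest ratios were Ndufa4, Uqcrb, Atp5g1, Ndufs1 and Ndufa10. The last is an accessory subunit of complex I and stood at 99.1 and 69.1 RPKM (or 116 and 80.6). The ratio of reads, scaled to the library sizes, was 0.621 (95% interval 0.599 to 0.644) for Ndufa4, 0.68 (95% interval 0.651 to 0.71) for Uqcrb and 0.672 (95% interval 0.646 to 0.70) for Atp5g1. Ndufs1 and Ndufa10 had log2 ratios of -0.52 and -0.50.

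**Figure D4:**
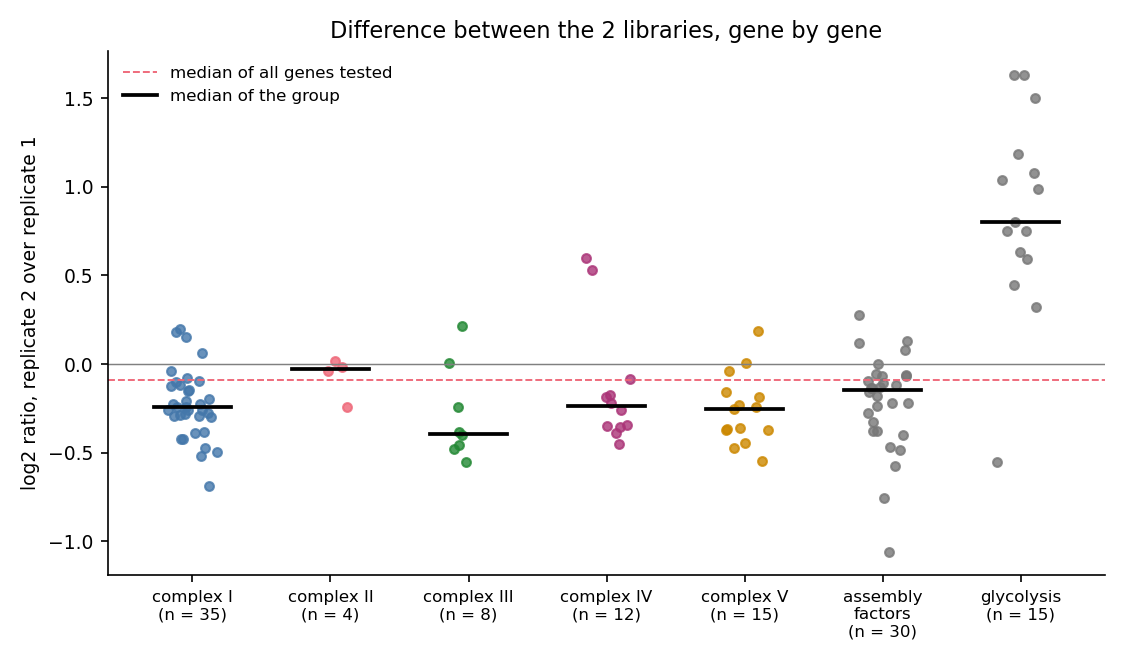
Log2 ratio of replicate 2 over replicate 1 (y axis, pseudocount 1, deposited RPKM) of each gene at a mean of 5 RPKM or more, for the 5 complexes, assembly factors and glycolysis, with black bars at the medians and a dashed line at the median of all genes. Points of complexes I, III, IV and V lie mostly below 0, glycolysis genes mostly above it.

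A few members stood on the other side. Against 39.1% of all genes, 11 of the 74 members were higher in replicate 2. The interval lay above 1 for 7 of them (background 29.7%), namely Cox7a2l, Cox7a1, Uqcrh, Ndufv3, Atp5e, Ndufa6 and Ndufa7. Cox7a2l, described elsewhere as a factor that joins complexes III and IV into supercomplexes, stood at 124 and 188 RPKM. Its ratio was 1.52 (95% interval 1.46 to 1.58). Neither supercomplexes nor the function of this protein in the strain used were measured. The reads of Cox7a2, the ubiquitous subunit and a relative of Cox7a2l, had a ratio of 0.763 (95% interval 0.733 to 0.794), on the other side of 1. Cox7a1 had a ratio of 1.55 (95% interval 1.11 to 2.18) and Uqcrh one of 1.16 (95% interval 1.12 to 1.2). Ndufv3 and Atp5e had log2 ratios of 0.20 and 0.19. Below the limit of 5 RPKM, Cox4i2 rested on 15 and 102 reads, a ratio of 7.07 (95% interval 4.09 to 13.1), and Cox6a2 on 17 and 51 reads, a ratio of 3.12 (95% interval 1.77 to 5.76). Cox6b2, with 52 and 64 reads, did not differ beyond counting error, at 1.28 (95% interval 0.874 to 1.88).

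Markers of other cells differed between the libraries too. All 8 monocyte and macrophage markers and all 4 mast cell markers that reached 5 RPKM were higher in replicate 2. Their median log2 ratios were 1.79 and 5.72. Of the 6 progenitor and promyelocyte markers, 4 (Mpo, Elane, Prtn3 and Ctsg) were lower, as were 60.9% of all genes. The median of the 6 was -0.28. Kit and Cd34 were higher beyond counting error, with ratios of 1.23 (interval 1.16 to 1.31) and 1.34 (interval 1.24 to 1.45). The part of all these markers in the ratios of the members was not tested. In bulk RNA, fewer cells of a type and less RNA per cell cannot be told apart.

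Other genes of the pathway mostly lay on the same side as the members. Of the carriers and subunits outside the symbol rule, all 6 were lower in replicate 2, with a median of -0.41. Cycs (cytochrome c) stood at 94.7 and 59.4 RPKM, a level of uncertain length, and Cyc1, the cytochrome c1 of complex III, at 151 and 100.1. The shares to read these counts against are those of all genes, of which 60.9% were lower and 39.1% higher, with a median of -0.09. Of the 30 assembly factors compared, 26 were lower, with a median of -0.15. Ndufaf2, an assembly factor of complex I, was the only one of these 30 past 2-fold, with a log2 ratio of -1.06. Lyrm7, an assembly factor of complex III below the limit of 5 RPKM, had a ratio of reads of 0.427 (95% interval 0.327 to 0.554). Its read numbers are uncertain. Assembly factors, which are not part of the finished enzymes, had median levels of 11.3 and 10.7 RPKM, and the members exceeded them by 3.61 ± 0.05 (SD, n = 2) on the log2 scale. Of the genes for upkeep and transcription of mitochondrial DNA, 6 of 6 compared were lower, between -0.33 and -0.13. The 15 glycolysis genes lay on the opposite side, with a median of 0.80 and 14 of them higher.

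Promoters of the members held letters known from binding sites of factors that act on respiratory genes. NRF1 and the ETS family factor GABP are activators of many such genes, and YY1 is a further regulator. RefSeq promoters (build GRCm38.p6, 250 bases before to 50 after the start) were found by symbol for 69 members and for 27025 symbols in all, counting the first entry of each symbol. Searched on both strands, the NRF1 letters GCGCANGCG occurred in 19 of the 69 member promoters, 27.5% (95% Wilson interval 18.4 to 39), and in 6.47% of all promoters. The ETS letters CCGGAAG occurred in 15 (21.7%, interval 13.6 to 32.8) against 9.12%, and the YY1 letters AAGATGGC in 10 (14.5%, interval 8.07 to 24.7) against 2.88%. Member promoters had a median GC content of 57.3%, and all promoters 52.7%, and the part of this in the NRF1 and ETS shares was not tested. Each set of letters was searched by itself, whether or not its matches overlapped those of another, and a match describes letters, not binding.

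The stretches below end at the base before the start site and show where the letters lie in 6 members with a match before the start, at least 1 from each complex, and in 1 without. Capitals mark the NRF1 letters (GCGCANGCG) and the ETS letters (on the opposite strand, CTTCCGG).
Ndufb4 (chr16:37654369-37654463, minus strand): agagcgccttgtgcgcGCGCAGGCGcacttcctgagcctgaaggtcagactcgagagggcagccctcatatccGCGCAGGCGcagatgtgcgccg
Sdha (chr13:74350241-74350370, minus strand): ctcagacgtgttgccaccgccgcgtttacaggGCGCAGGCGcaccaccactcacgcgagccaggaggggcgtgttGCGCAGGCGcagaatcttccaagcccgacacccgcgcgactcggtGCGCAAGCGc
Sdhd (chr9:50603850-50603939, minus strand): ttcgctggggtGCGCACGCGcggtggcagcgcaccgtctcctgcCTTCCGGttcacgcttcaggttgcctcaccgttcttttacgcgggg
Uqcrh (chr4:116075071-116075130, minus strand): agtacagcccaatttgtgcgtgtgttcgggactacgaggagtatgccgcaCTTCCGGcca
Cox6a1 (chr5:115348959-115349078, minus strand): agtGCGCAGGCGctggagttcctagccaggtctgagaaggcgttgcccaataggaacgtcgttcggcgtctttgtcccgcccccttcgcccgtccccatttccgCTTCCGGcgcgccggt
Atp5h (chr11:115419920-115420063, minus strand): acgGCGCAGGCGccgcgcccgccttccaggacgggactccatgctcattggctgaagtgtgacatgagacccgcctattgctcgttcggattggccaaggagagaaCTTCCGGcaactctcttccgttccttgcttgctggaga
Cox8b (chr7:140900447-140900566, minus strand): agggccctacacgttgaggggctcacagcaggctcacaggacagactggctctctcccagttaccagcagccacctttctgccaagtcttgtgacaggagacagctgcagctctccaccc
Sdha has the NRF1 letters 3 times within these 130 bases, Ndufb4 2 times, and Sdhd, Cox6a1 and Atp5h have both kinds. Cox8b, the isoform with about 1 read in these cells, has neither kind in its whole promoter window. These stretches are examples and do not show that the letters go with the level of a gene. Ndufs5, which had no reads in either library, has the NRF1 letters at position -98 from the start. Of all 69 member promoters, 37 had at least 1 of the NRF1, ETS and YY1 letters, as had 3 of 13 in complex IV.

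By complex, the NRF1 letters were found in 8 of 32 promoters of complex I, 2 of 3 of complex II, 2 of 5 of complex III, 1 of 13 of complex IV and 6 of 16 of complex V. The YY1 letters were found in 7 promoters of complex I and 3 of complex V and in none of the other complexes. They lay just after the start site in 9 of 10 cases, at a median position of 26 bases after it, while 41.9% of the YY1 matches in all promoters lay after the start. Levels by letters were taken over the constant subunits above 0, which leaves out Ndufs5. The 18 with NRF1 letters had median levels of 165 and 159 RPKM and the 43 without 166 and 148. The 15 with ETS letters had medians of 319.7 and 282 and the 46 without 152 and 136. The 9 with YY1 letters had medians of 116 and 105 and the 52 without 174 and 158. These are descriptions of genes in the same 2 libraries, with no test.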

How the data were processed

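RNA was sequenced in 2 libraries of 1 group. The authors deposited 1 RPKM value per gene and library. The submitters' processing notes name Trimmomatic 0.32, TopHat2, HTSeq and edgeR with build mm9. The sources used here give neither settings, annotation nor strand. Per the labels' protocols, total RNA was purified with DNase treatment and made into libraries with a TruSeq kit. Columns were assigned by name. Of 24015 rows, 27 with date-like names were left out, and no per-sample column was left unused.

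The members, lists, groups and rules were chosen with earlier results of these data known. Sizes followed from 464 genes with equal reads and from lengths of GENCODE vM21 transcripts. These sizes may include a normalisation factor. A shift in rows was accepted where implied lengths (1 to 3 multiples, within 1 base) matched best over up to 100 informative rows on each side. 88.8% of 8677 informative rows in the whole table lay at another row than their own. Own lengths came from the row that had taken them for 63 members and from GENCODE transcripts with a RefSeq accession for the others. On simulated data with known lengths, 98.7% of 75 members with 100 reads or more got the right length. Of these members 92% were within 5% of the right level, and all were within 2-fold. Most simulated lengths were annotated ones, and the simulated shifts were those found in the data. Most real rows matched no annotated length, so the simulation was an easier case and does not give the accuracy for the real values. The planned levels were RPKM as deposited. They were replaced by realigned values after the shift was found, and the deposited values are an alternative.

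Differences were of medians of log2(RPKM + 1) within a library, called beyond the spread when over 2 SD with 1 sign. This spread leaves out errors in length, which both libraries share. Named genes were the 4 highest and 2 lowest of each complex, those under 1 RPKM in a library, the 5 largest ratios each way at a mean of 5 RPKM, the isoform groups and the core of complex I, other members being named for their role after their values were seen. Near-identical copies of 14 members (Atp5g1, Atp5g2, Atp5h, Atp5l, Cox7c, Ndufs5, Atp5c1, Atp5k, Atp5o, Ndufa12, Ndufb11, Ndufs3, Ndufs6 and Uqcrb) came from blastn 2.17.0. Exons of 29 members overlap another gene, in most cases on the opposite strand, whose reads cannot be told apart if counting ignored strand. Other tools were Python 3.11.15, pandas 2.3.3, numpy 2.4.6, scipy 1.17.1 and matplotlib 3.10.9. The values of 1 core gene are not reported here. Identity between proteins, a planned description, was not run, and leukaemia cells were not analysed here.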

Additional observations from a re-analysis of the deposited data

How the results depend on the processing

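No paired analysis was possible because there is 1 group, so no numbers are shared between groups. The values below are differences on the log2 scale or median levels in RPKM, in the order of the alternatives. As deposited, complex V minus complex I was -1.09 and core minus accessory 0.38, both of the opposite sign, the lengths being those of other genes. F1 minus stalk was 2.05, c-ring minus F1 -1.82, membrane accessory minus F1 -2.59, and members minus assembly factors 3.21. Levels as deposited were 131 for complex II, 175 for IV and 49.5 for V. Means over members gave levels of 193 for III, 216 for IV and 315 for V. They gave differences from complex I of 0.26 for II, 0.98 for III and -0.90 (reversed) for IV, the restricted isoforms then weighing more. They also gave -0.53 for core minus accessory, -0.46 (reversed) for F1 minus stalk, 0.51 for c-ring minus F1, 0.24 for membrane accessory minus F1 and 2.86 for members minus assembly factors. With members at 1 RPKM or more, complex IV stood at 226, and the differences were 0.47 for III, 0.99 for IV and -1.05 for core. With structural subunits only, complex IV stood at 394 and the differences were 1.85 for IV, 1.45 for V and 3.70 for assembly. With reference lengths they were 0.61 for III, -0.68 for core, 0.25 for F1 minus stalk and 3.45 for assembly. Without members of uncertain length complex IV stood at 130.3, and the differences were 0.33 for IV, -0.90 for core, 1.15 for c-ring minus F1 and 3.52 for assembly. With a pseudocount of 0.1 members minus assembly factors was 3.71. The deposited values, the reference lengths and the members left out were alternatives chosen after seeing the data.

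Between libraries, the members' median was -0.15 when centred on all genes, and kept its sign under all 8 alternatives run, while that of complex II turned to 0.060. The 2-fold count was 0 each way. It was 2 higher (Cox4i2 and Cox6a2) with a minimum of 1 RPKM or with no filter, and at 1.5-fold 1 higher and 1 lower. Without members that have copies or overlaps 31 were lower in replicate 2, fewer being compared. With 1 mismatch in the NRF1 letters 60.9% of member promoters matched, against 24.5% of all. Leaving out each library in turn gave levels of 99.8 to 116 for complex I, 119.6 to 126 for complex II, 148 to 174 for complex III, 161 to 168 for complex IV and 234 to 297 for complex V, and differences of 0.06 to 0.17 for II minus I, 0.50 to 0.56 for III minus I, 0.44 to 0.73 for IV minus I, 1.22 to 1.34 for V minus I, -0.96 to -0.92 for I core minus I accessory, 0.15 to 0.23 for V F1 minus V peripheral stalk, 0.09 to 0.32 for V c-ring minus V F1, 0.05 to 0.20 for V membrane accessory minus V F1, -8.09 to -6.63 for restricted minus ubiquitous IV and 3.58 to 3.64 for members minus assembly factors. Depth did not limit the levels of the ubiquitous members, each of which had 784 reads or more apart from Ndufs5, but it limits the tissue-restricted isoforms, with at most 102 reads.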

Other observations

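Of 8 genes for regulators of respiratory gene expression, 6 reached a mean of 5 deposited RPKM, and their realigned levels lay between 7.32 and 25.7 RPKM. Yy1 stood at 17.2 and 16.5 RPKM, Esrra (a nuclear receptor of mitochondrial genes) at 25.7 and 24 and Nrf1 at 9.39 and 7.33. Gabpa and Gabpb1, the 2 chains of GABP, stood at 15.3 and 14.7 and at 9.07 and 8.64, the level of Gabpa being of uncertain length. Of the coactivators of the PGC-1 family, Ppargc1a was listed at 0 in both libraries, Ppargc1b stood at 1.53 and 1.04 and Pprc1 at 10.8 and 7.32. All 6 were lower in replicate 2, as were 60.9% of all genes. Of the 6, Nrf1 and Pprc1 were lower beyond counting error, a share below the 48.4% of all genes, with ratios of 0.781 (95% interval 0.722 to 0.844) and 0.681 (0.631 to 0.735).

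Among the genes that keep and transcribe mitochondrial DNA, Polg, the catalytic subunit of the DNA polymerase, was the highest at 32.6 and 28.8 RPKM. Tfam, which packs and transcribes that DNA, stood at 13.5 and 12, Tfb2m, a factor of transcription start, at 15.9 and 13.4 and Polrmt, the RNA polymerase, at 5.86 and 5.28. As deposited Tfam had stood at 94.1 and 83.1 RPKM and Polg at 167 and 148, further cases of genes whose level depends on the length of another row.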
